A study of Mus musculus with 50 samples.

Results

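The genes described here are 9 precursors of secreted peptides in the mouse nucleus accumbens (NAc): the neuropeptide precursors Cartpt, Nts, Cck, Adcyap1 and Vip, and the granins Vgf, Scg2, Chga and Chgb. They were chosen by gene symbol from the 24552 genes of the count tables, and all 9 were found and passed the filter on low counts in every comparison. RNA was sequenced from RiboTag (RT) mice, in which cells with Cre recombinase carry ribosomes with an HA tag, so that an antibody against HA precipitates the mRNA being translated in those cells (IPs). The IPs came from D1-type medium spiny neurons (D1-MSNs, genotype RT; D1-Cre) and from D2-type neurons (D2-MSNs, genotype RT; D2-Cre), and the inputs were supernatant left over from the same homogenates. Cre is driven by D1 or D2 receptor BAC transgenes in these lines, so that any cell of a tissue punch with Cre contributes to an IP, whatever its type. All mice were C57BL/6, aged 8 to 12 weeks in the main set, and each library pooled the NAc punches of 2 mice. Control mice (Con) were housed with their own strain, whereas defeated mice met an aggressive CD1 male daily for up to 10 days and were sorted by a social interaction test into resilient (Res) and susceptible (Sus) mice. There were 4 Con, 4 Res and 5 Sus libraries of D1-IPs, 5 of each group of D2-IPs, and 3 inputs for each group and line. In addition, 4 libraries were D1-IPs of undefeated male mice labelled Sirt1-KO (genotype RT; Sirt1-floxed; D1-Cre), of unstated age.

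Neuropeptides are made as longer precursor proteins that enter the secretory pathway, are packed into dense-core vesicles, and are cut there by prohormone convertases into the active peptides. Granins are acidic proteins of the same vesicles, which help the vesicles to form and are themselves cut into peptides. In the NAc, Cartpt (the precursor of CART) and Nts (neurotensin) are made by subsets of medium spiny neurons. Cck (cholecystokinin) is abundant in cortical neurons, Vip (vasoactive intestinal peptide) marks a class of cortical interneurons, and Adcyap1 encodes PACAP, a peptide related to VIP that acts on overlapping receptors. Many of these genes carry a cyclic AMP response element (CRE) near the start of transcription, the site bound by CREB, through which neuronal activity and cyclic AMP raise transcription.

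The sequences around that element are shown for 6 genes, because they are the known sequence feature of this group that links its genes to activity. The windows were RefSeq promoters of GRCm38.p6, from 250 bases before to 50 bases after a gene's start. The full element TGACGTCA, in capitals in the first 3 lines, was found in the windows of Cartpt, Scg2 and Chgb, which is 3 of the 8 genes with a window, and in 1.79% of all 32851 windows.
Cartpt: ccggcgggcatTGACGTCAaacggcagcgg
Scg2: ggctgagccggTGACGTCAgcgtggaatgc
Chgb: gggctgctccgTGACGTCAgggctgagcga
The shorter form TGACG was searched on both strands, where it reads CGTCA on the other strand, and every full element also holds it. It is in capitals in the next 3 lines. It was found in a window of all 8 genes and in 20.8% of all windows. Vgf had no window in the promoter set used.
Cck: cctgctggactgCGTCAgcactgggtaaa
Adcyap1: ggactaggatgcTGACGtcttttactgat
Vip: ggatcactactgTGACGtctttcggggag
The Cartpt stretch is at chr13:99900777-99900806 on the minus strand, with the element 112 to 105 bases before the RefSeq start. That of Scg2 is at chr1:79440076-79440105, minus strand, with the element 68 to 61 bases before the start, and that of Chgb at chr2:132781559-132781588, plus strand, 72 to 65 bases before the start. In the GENCODE vM21 annotation, in which some transcripts start earlier, these 3 stretches overlap an untranslated part of an exon of the same gene. The Cck stretch (chr9:121495725-121495753, minus strand, 47 to 43 bases before the start), the Adcyap1 stretch (chr17:93198914-93198942, plus strand, 91 to 87 bases before) and the Vip stretch (chr10:5639127-5639155, plus strand, 79 to 75 bases before) overlap no annotated gene. A match to these letters is a description of sequence and was not tested as a binding site.

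Each library held 18384265 to 31785984 counts on genes. The IPs carried the markers of medium spiny neurons, with a summed level of 4 markers (Ppp1r1b, Drd1, Drd2 and Adora2a) of 1877 to 3189 CPM (counts scaled to the library total) in D1-IPs and 2883 to 3938 CPM in D2-IPs, against 851 to 1469 CPM in inputs. All 6 astrocyte, 6 oligodendrocyte, 6 microglial and 4 endothelial markers were lower in the Con IPs of both lines than in inputs. Markers of cortical excitatory neurons did not follow that pattern. The summed level of 5 such genes (Slc17a7, Tbr1, Neurod2, Neurod6 and Emx1) was 393 to 1369 CPM in D1-IPs, 21.1 to 312 CPM in D2-IPs and 68.7 to 1082 CPM in inputs, and none of the 5 was at 0 in every library of a group. Cholinergic markers ran the other way, at 7.48 to 28.8 CPM in D1-IPs and 56.6 to 123 CPM in D2-IPs. In these bulk libraries, fewer cells of a type and less RNA per cell cannot be told apart.

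Per kilobase of exon, Scg2, the precursor of secretoneurin, was the most abundant of the 9 genes in every kind of library, and Vip had the lowest mean. In the inputs the means of Vip (1.85 CPM per kb) and Adcyap1 (2.17 CPM per kb) were close and their ranges overlapped, as they did in D2-IPs. In D1-IPs the mean level was 397 CPM per kb for Scg2, 159.9 for Chgb, 158 for Vgf, 112 for Chga, 57.0 for Cck, 40.6 for Nts, 32.7 for Cartpt, 4.10 for Adcyap1 and 0.519 for Vip (n = 13). The ranges of Chgb and Vgf overlapped, and so did those of each neighbouring pair from Chga down to Cartpt. In D2-IPs Scg2 (352 CPM per kb) was followed by Vgf (165), Chgb (139.95) and Chga (72.4), then by Nts (44.9), Cartpt (38.5) and Cck (13.9), with Adcyap1 at 0.605 and Vip at 0.148 (n = 15). Cck thus stood below Nts and Cartpt in D2-IPs, and its range there overlapped neither. The whole genes lie, on GRCm38 in GENCODE vM21, at 13:99898489-99901091 (Cartpt), 10:102481756-102490486 (Nts), 9:121489824-121495694 (Cck), 17:93199017-93206537 (Adcyap1), 10:5639218-5647617 (Vip), 5:137026392-137033351 (Vgf), 1:79434669-79440120 (Scg2), 12:102554969-102565028 (Chga) and 2:132781278-132795079 (Chgb), and none overlaps another annotated gene.

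**Figure D1:**
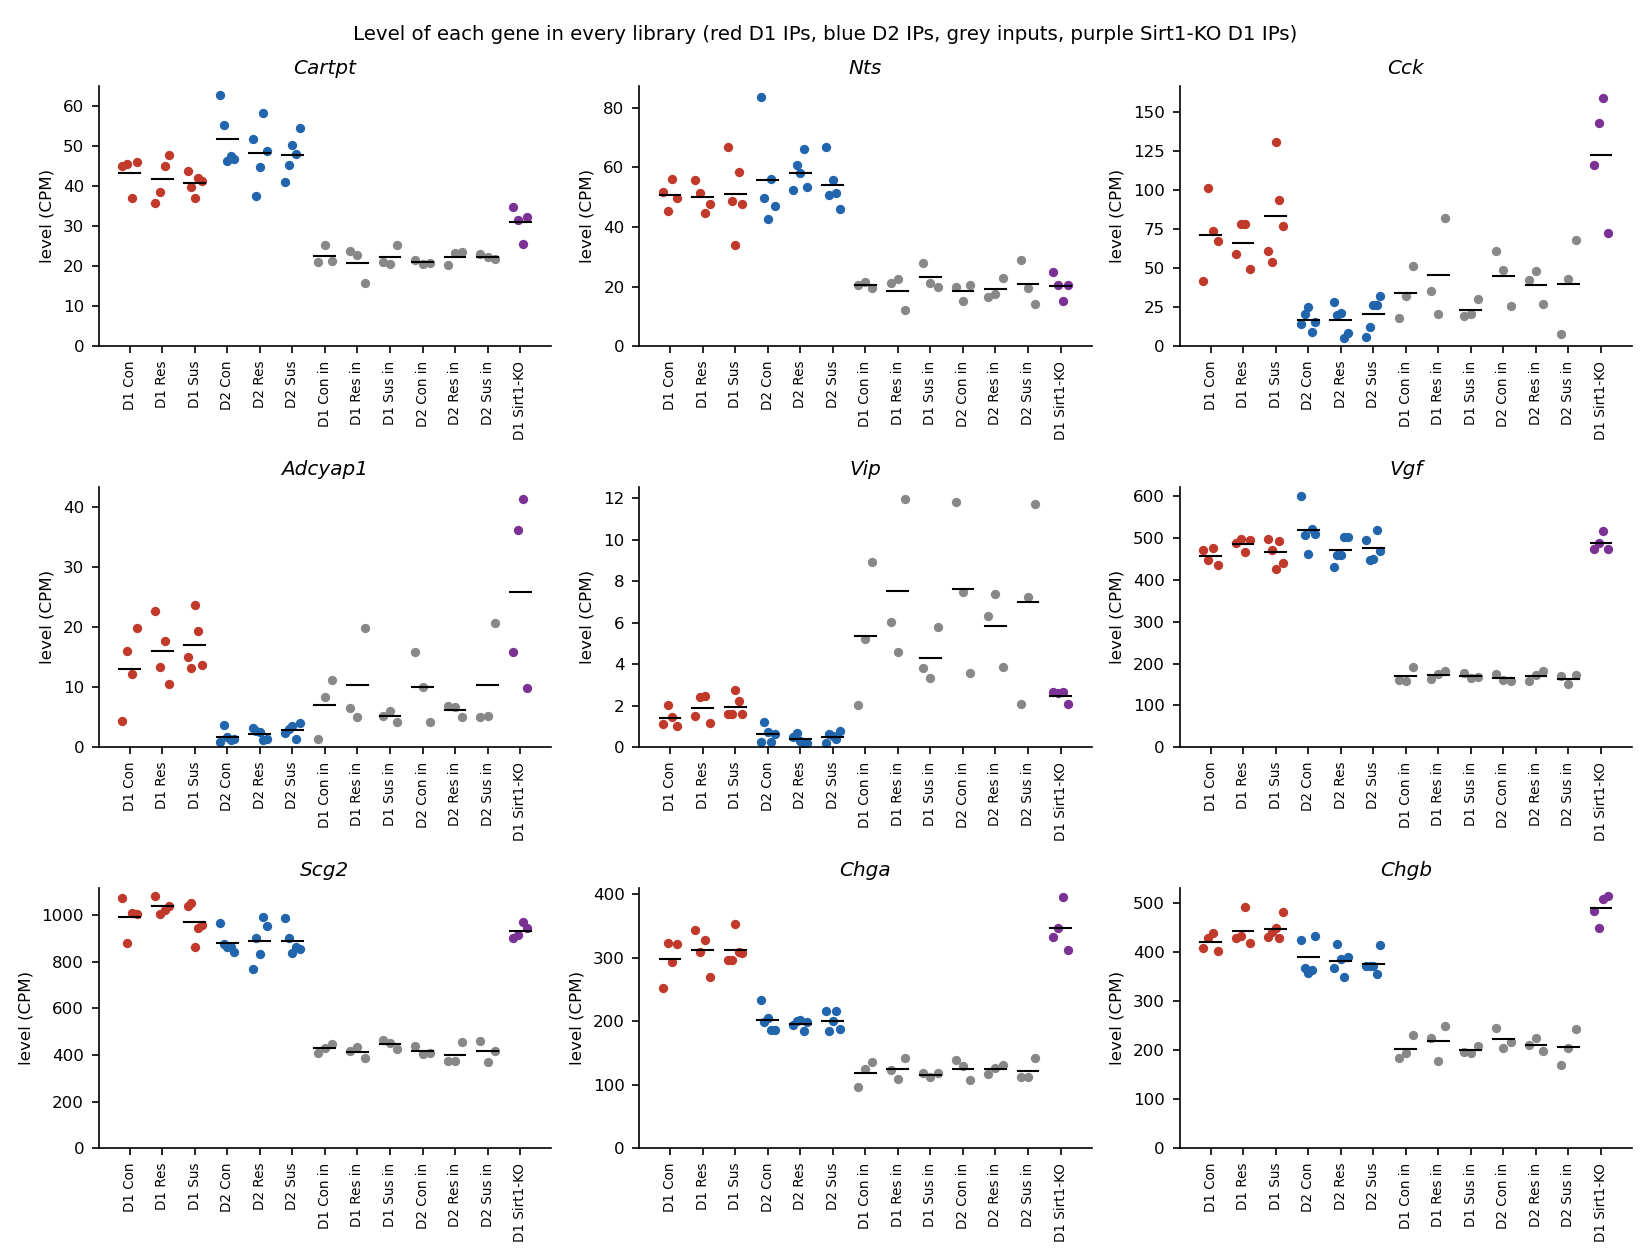
Level of each of the 9 genes (CPM, linear axes from 0) in each of the 50 libraries, by group, with a black line at each group's mean. Cck, Adcyap1 and Vip differ between D1- and D2-IPs and spread widely within groups, whereas the granins, Cartpt and Nts sit well above the inputs in the D1- and D2-IPs of Con, Res and Sus mice, with Nts (15.1 to 25.1 CPM) within and Cartpt (from 25.5 CPM) just above the range of the inputs in the libraries labelled Sirt1-KO.

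D1- and D2-MSNs were compared within each stress group, to ask which transcripts mark the subtypes. In controls, Cck, Adcyap1 and Vip were higher in D1-IPs, by 4.30-fold, 7.73-fold and 2.35-fold. Calls required an adjusted p under 0.05 and a difference above 1.5-fold. These were the 3 of 9 genes called, where 4.85% of the 14224 genes tested were (3.34% higher and 1.51% lower in D1-IPs). The median log2 fold change of the 9 genes was 0.19, against -0.01 for all genes. In Res and in Sus mice 4 of 9 were called, all higher in D1-IPs, where 5.41% (3.62% higher) and 5.48% (3.91% higher) of all genes were called.

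Cck stood at 41.8, 102, 73.9 and 67.6 CPM in the 4 D1 Con libraries and at 14.1, 20.9, 25.0, 9.19 and 15.4 CPM in the 5 D2 Con libraries. The groups did not overlap, and the lowest D1 library was D1 Con 1. The log2 fold change was 2.10 ± 0.44 (SE, edgeR adjusted p = 0.00234) in Con, with 4.02-fold in Res (adjusted p = 0.00278) and 4.13-fold in Sus (adjusted p = 0.00133). Over all stress groups the level was 74.4 ± 24.0 CPM in D1-IPs (SD, n = 13) and 18.1 ± 8.58 CPM in D2-IPs (SD, n = 15).

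Adcyap1 was at 4.34, 16.0, 12.3 and 19.8 CPM in D1 Con and at 0.851, 3.63, 1.74, 1.23 and 1.33 CPM in D2 Con. D1 Con 1 was again the lowest D1 library, yet above every D2 library of that group. Its difference was the largest of the 9 genes in each stress group, at a log2 fold change of 2.95 ± 0.42 in Con (edgeR adjusted p = 3.65e-05), 7.26-fold in Res (adjusted p = 2.72e-05) and 6.01-fold in Sus (adjusted p = 3.11e-05). The D2-IPs held 20 to 95 counts of this gene.

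Vip was at 1.12, 2.03, 1.46 and 1.01 CPM in D1 Con and at 0.255, 1.23, 0.713, 0.260 and 0.639 CPM in D2 Con. The highest D2 library, D2 Con 2, lay above 2 of the D1 libraries. The log2 fold change was 1.23 ± 0.41 in Con (edgeR adjusted p = 0.0387), 5.06-fold in Res (adjusted p = 1.84e-04) and 3.86-fold in Sus (adjusted p = 4.76e-04), and in Res and Sus the groups did not overlap. With 4 to 24 counts per D2-IP, Vip was close to the limit of detection there, and the Con call held in 4 of the 9 fits that left out a library, being lost without D1 Con 2, D1 Con 3, D2 Con 1, D2 Con 4 or D2 Con 5 (adjusted p up to 0.174).

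The markers of cortical excitatory neurons moved with these 3 genes. Of the 5 markers, 4 were called higher in D1- than in D2-IPs in Con, 4 in Res and 5 in Sus, with median log2 fold changes of 2.12, 2.07 and 2.24. Their part in the result was not tested. Of the other cell types, 3 of 4 cholinergic markers were lower in D1 Con than in D2 Con, as was 1 of 4 markers of Sst, Npy and Pvalb interneurons, whereas 1 of 3 markers of Htr3a-class interneurons (Htr3a itself, log2 fold change 1.37, edgeR adjusted p = 0.00375) was higher, and none of 4 septal markers was called. The Htr3a-class markers summed to 20.4 to 47.9 CPM in D1-IPs, 7.09 to 47.9 CPM in D2-IPs and 16.9 to 53.9 CPM in inputs.

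**Figure D2:**
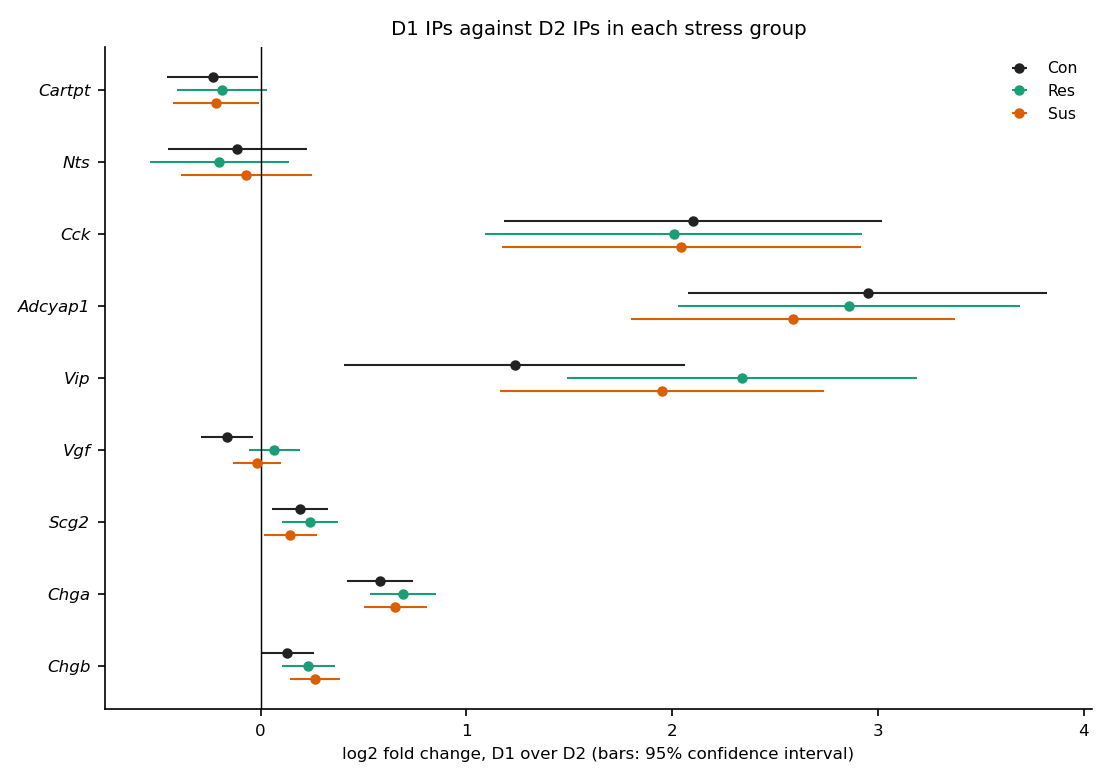
Log2 fold change of D1- over D2-IPs for each gene in Con, Res and Sus mice, with 95% confidence intervals from edgeR; 0 is no difference. Adcyap1, Cck and Vip lie highest, from 1.23 to 2.95, Chga lies between 0.58 and 0.69, and the other genes lie between -0.23 and 0.26.

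Among the granins, Chga (chromogranin A) differed most between D1- and D2-IPs. It was at 252, 323, 293 and 321 CPM in D1 Con and at 234, 199, 204.5, 186 and 187 CPM in D2 Con, so that every D1 library was above every D2 library. The difference was 1.497-fold in Con (log2 fold change 0.58 ± 0.08, edgeR adjusted p = 4.87e-06), just under the fold threshold, 1.62-fold in Res (adjusted p = 2.15e-07) and 1.57-fold in Sus (adjusted p = 1.55e-07). In Con it was past 1.5-fold with RLE size factors (log2 fold change 0.59) and in DESeq2 (0.59), and without D1 Con 1, D1 Con 3, D2 Con 1 or D2 Con 3 (0.59 to 0.66). Most cortical markers were also higher in D1-IPs in each stress group, and their part in the difference of Chga was not tested. Chgb (chromogranin B) and Scg2 differed in the same direction by less than 1.5-fold. Chgb was 1.18-fold higher in D1-IPs in Res (adjusted p = 0.00965) and 1.20-fold in Sus (adjusted p = 0.00199), and 1.09-fold in Con (adjusted p = 0.18). Scg2 was 1.18-fold higher in Res (adjusted p = 0.0115), with 1.14-fold in Con (adjusted p = 0.0534) and 1.10-fold in Sus (adjusted p = 0.118). Vgf, a granin induced by neurotrophins, had log2 fold changes of -0.16, 0.07 and -0.02 in Con, Res and Sus (adjusted p = 0.0718, 0.502 and 0.889).

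Cartpt and Nts did not pass the test between the subtypes. Cartpt was at 44.9, 45.4, 37.0 and 45.98 CPM in D1 Con and at 62.6, 55.2, 46.2, 47.5 and 46.7 CPM in D2 Con. The 2 groups did not overlap, but the gap between 45.98 and 46.2 CPM was narrow, and the log2 fold changes of -0.23, -0.19 and -0.22 in Con, Res and Sus had adjusted p-values of 0.160, 0.250 and 0.149. Nts was at 51.9, 45.2, 56.2 and 49.8 CPM in D1 Con and at 83.7, 49.7, 42.5, 56.0 and 46.9 CPM in D2 Con, with D2 Con 1 well above the rest. The interval of its log2 fold change in Con ran from -0.45 to 0.22, so that a difference of the size of Cck's lay outside it.

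IPs were compared with inputs to see which transcripts were enriched on the ribosomes of the tagged cells. Cartpt, Nts and the 4 granins were enriched in both lines, in controls and in defeated mice, whereas Vip was depleted throughout. Cck and Adcyap1 were lower than inputs in D2-IPs and higher than inputs in the D1-IPs of defeated mice. In D1 Con, 7 of 9 genes were called (6 higher and 1 lower), where 41.3% of 14922 genes were called (14.2% higher and 27% lower). In D2 Con all 9 were called, 6 higher and 3 lower, where 42.4% of all genes were called (14.7% higher and 27.8% lower). In defeated mice, with Res and Sus averaged, 8 were higher and 1 lower in the D1 line (41.9% of 15239 genes called, 13.9% higher and 28% lower), and 6 higher and 3 lower in the D2 line (42.3%, with 13.3% higher and 29% lower).

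Vgf had the largest enrichment, at a log2 fold change of 1.41 ± 0.08 in D1 Con (edgeR adjusted p = 2.65e-12) and 1.62 ± 0.08 in D2 Con (adjusted p = 1.83e-13). Its level was 427 to 499 CPM in the D1-IPs and 432 to 599.7 CPM in the D2-IPs, against 150.4 to 193 CPM in the inputs. Scg2 was at 860.5 to 1079.9 CPM in D1-IPs, 768 to 992 CPM in D2-IPs and 372 to 462 CPM in inputs, with log2 fold changes of 1.19 and 1.05 in D1 Con and D2 Con. Chgb was at 404 to 492, 350.1 to 433 and 171 to 250.5 CPM in the same kinds of library (log2 fold changes 1.03 and 0.78). Each of these granins was thus separated from the inputs in every library. Chga was enriched 2.47-fold in D1 Con and 1.58-fold in D2 Con, the latter close to the threshold. It was at 0.57 without D2 Con input 3 and at 0.58 on the log2 scale, under 1.5-fold, when the genes tested were limited to those averaging 50 counts or more.

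Nts was at 33.9 to 66.8 CPM in D1-IPs and 42.5 to 83.7 CPM in D2-IPs, against 12.1 to 28.9 CPM in inputs. Its log2 fold change was 1.29 ± 0.19 in D1 Con and 1.55 ± 0.19 in D2 Con (edgeR adjusted p = 3.97e-05 and 6.47e-06). Cartpt was at 35.8 to 47.7 CPM in D1-IPs, 37.5 to 62.6 CPM in D2-IPs and 15.8 to 25.2 CPM in inputs (log2 fold changes 0.93 ± 0.11 and 1.27 ± 0.11, adjusted p = 1.24e-07 and 1.03e-09). None of the 28 IPs of Con, Res and Sus mice reached down to the inputs for these genes.

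Cck was at 18.2, 32.2 and 51.6 CPM in the D1 Con inputs and at 61.2, 48.9 and 25.9 CPM in the D2 Con inputs. Its D1 Con IPs overlapped their inputs (log2 fold change 1.05 ± 0.44, edgeR adjusted p = 0.0522, and 0.0231 in DESeq2), while its D2 Con IPs lay below theirs (-1.45 ± 0.43, adjusted p = 0.00959). The D2 call was lost without D2 Con input 1 (-1.17, adjusted p = 0.0527). It was also lost in a fit that paired IPs and inputs of the same number (-1.15, edgeR adjusted p = 0.103). In defeated mice it was 2.27-fold higher in D1-IPs than in inputs (adjusted p = 0.0128), and its log2 fold change in D2-IPs was -1.12 (adjusted p = 0.0134), lost without D2 Sus input 3 (-0.78, adjusted p = 0.0953).

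Adcyap1 was at 1.46, 8.32 and 11.2 CPM in the D1 Con inputs and at 15.8, 9.97 and 4.25 CPM in the D2 Con inputs. It had a log2 fold change of 0.88 ± 0.67 in D1 Con (adjusted p = 0.262) and -2.56 ± 0.72 in D2 Con (adjusted p = 0.00708), and of 1.17 (adjusted p = 0.00205) and -1.68 (adjusted p = 5.64e-05) in defeated mice. Vip was the only one of the 9 genes that was lower in D1-IPs than in inputs. It was at 2.02, 5.2 and 8.93 CPM in the D1 Con inputs and at 11.8, 7.48 and 3.56 CPM in the D2 Con inputs. Its log2 fold change was -1.95 ± 0.53 in D1 Con (adjusted p = 0.00478) and -3.68 ± 0.56 in D2 Con (adjusted p = 4.36e-05), and in D1 Con it was -1.36 without D1 Con input 3 (adjusted p = 0.0354). Of the 5 cortical markers, none was called in D1 Con against input (median log2 fold change 0.70) and 5 were lower in D2 Con (median -1.73), and their part in these results was not tested.

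The difference between the lines in enrichment was tested directly in controls. It was called at an adjusted p under 0.05 for 2 of 9 genes, where 4.34% of all genes were called: Cck (2.50 ± 0.62 on the log2 scale, adjusted p = 0.0463) and Chga (0.64 ± 0.17, adjusted p = 0.0442). For Adcyap1 it was 3.44 ± 0.99 (adjusted p = 0.0788, and 0.0123 in DESeq2). Each of the 2 calls held in 4 of the 15 fits that left out a library. Both held without D1 Con 1, D1 Con input 3 or D2 Con input 3, that of Cck also without D2 Con 3 and that of Chga without D2 Con 1, and the other fits lost them (2.19 to 2.57 for Cck and 0.50 to 0.67 for Chga). Cck's call was lost with all 46 IPs and inputs in the fit (adjusted p = 0.0533). It was also lost when IPs and inputs of the same number were paired (2.25, edgeR adjusted p = 0.216). The inputs of the lines themselves did not differ detectably: none of the 9 genes was called, where 0.0202% of 14820 genes were (0.0135% higher and 0.00675% lower in the D1 line), and the log2 fold change of D1 over D2 inputs was -0.31 for Cck, -0.24 for Adcyap1 and -0.27 for Vip. None of the 9 was below 0.05 before adjustment.

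**Figure D3:**
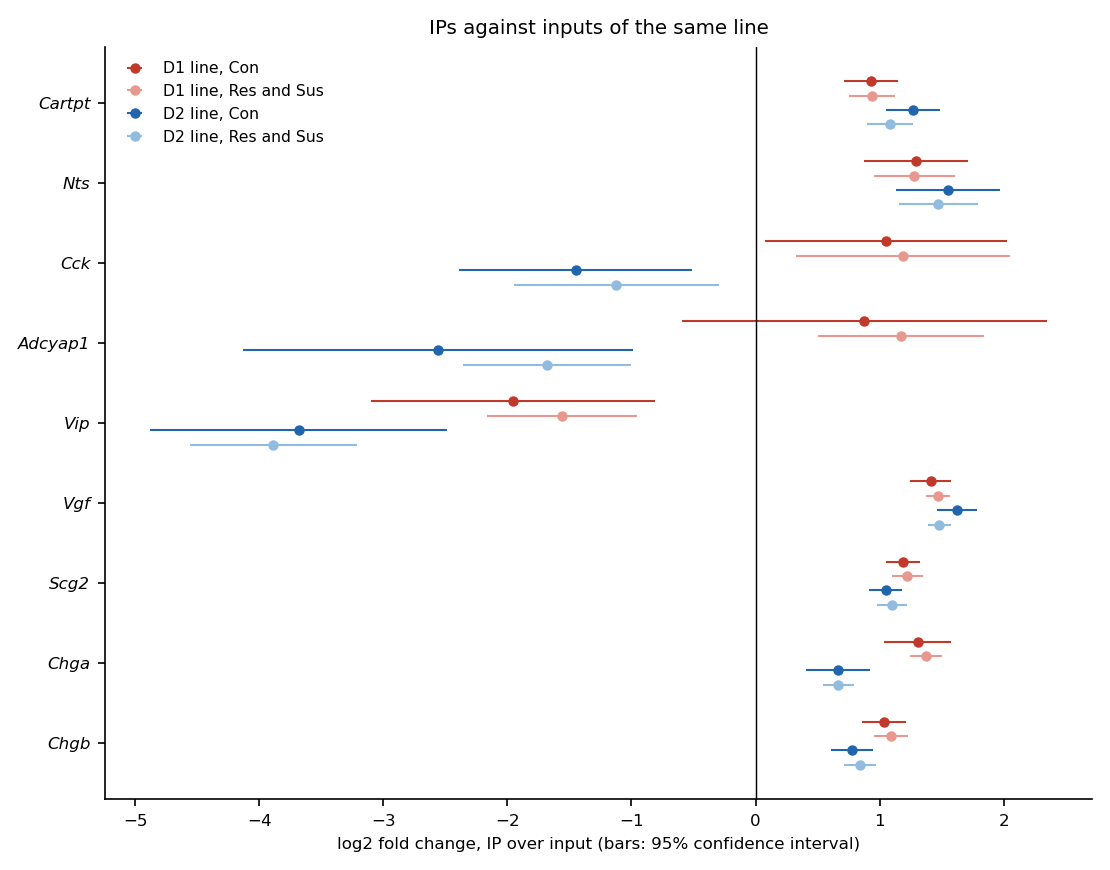
Log2 fold change of IPs over inputs for each gene, for the D1 and D2 lines in control and in defeated mice, with 95% confidence intervals from edgeR. Cartpt, Nts and the granins lie above 0 in all 4 series, Vip lies below 0 in all 4, and Cck and Adcyap1 lie above 0 in the D1 line and below 0 in the D2 line.

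Within groups, too, the level of Cck followed the cortical markers from library to library. With the mean of each of the 6 IP groups subtracted, Pearson's r over the 28 IPs between the log2 level of a gene and of the summed cortical markers was 0.95 for Cck, 0.78 for Vip and 0.53 for Adcyap1. It was -0.77 for Scg2, -0.54 for Nts and -0.52 for Vgf, and between -0.04 and 0.23 for Cartpt, Chga and Chgb. Other marker lists also gave sizeable values for some genes. For Chga, r was 0.74 with the Sst, Npy and Pvalb interneuron markers and -0.61 with the medium spiny neuron markers. Cck was at -0.67 with the Htr3a-class markers, and Scg2 at 0.65 with the oligodendrocyte markers. None of these correlations was tested. These points share libraries, depth and scaling, since all genes of a library are set against its own normalized total. Cck was also set against the cortical sum as a ratio, whose difference between kinds of library was not tested. Per 1000 CPM of the markers there were 85.7 to 106 CPM of Cck in D1-IPs (median 95.7) and 81.0 to 289 CPM in D2-IPs (median 105), against 64.2 to 116 CPM in inputs (median 74.0). The highest ratio was in D2 Sus 1, where the markers summed to 21.1 CPM. For Adcyap1 the medians were 20.4 CPM in D1-IPs, 13.5 in D2-IPs and 15.8 in inputs, with wide ranges (11.03 to 35.7, 5.42 to 109 and 6.77 to 73.6). Vip was different in that the inputs held 9.35 to 30.1 CPM per 1000 CPM of the markers (median 11.9), against 1.40 to 2.94 in D1-IPs (median 2.36) and 1.45 to 9.65 in D2-IPs (median 2.72).

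**Figure D4:**
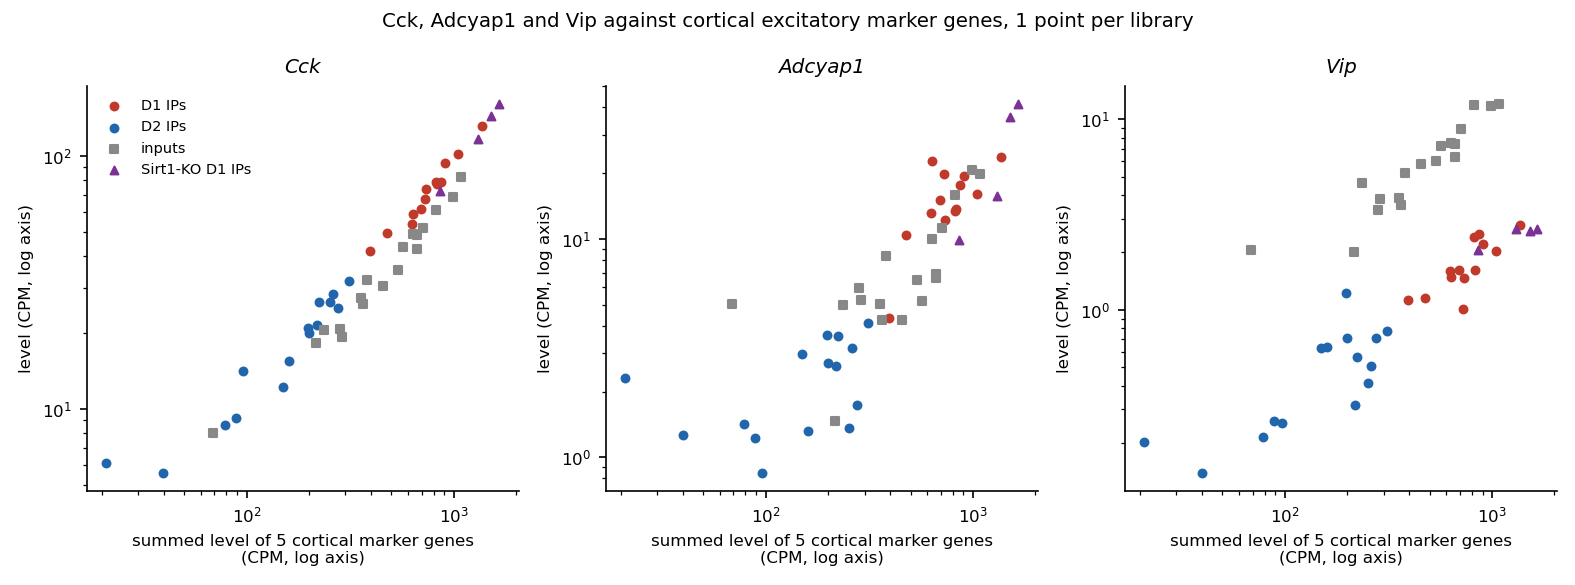
Level of Cck, Adcyap1 and Vip (CPM) against the summed level of 5 cortical excitatory neuron markers (CPM), both on log axes, for each of the 50 libraries by kind. Cck rises with the markers in D1-IPs, D2-IPs and inputs alike, with the inputs slightly lower, and for Vip the inputs lie above the IPs.

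The stress groups were compared within each subtype, to ask whether susceptibility or resilience went with a change in these transcripts. The Sus and Res comparisons of a subtype share its Con libraries. No gene of the 9 passed an unadjusted p under 0.05 in the D1-IPs, where 5.24% (Sus against Con), 2.05% (Res against Con) and 4.08% (Sus against Res) of 14224 genes did. In the D2-IPs only Vgf did, in Sus against Con (3.6% of all genes) and in Res against Con (2.94%), and no gene of the 9 did in Sus against Res (1.62%). At an adjusted p under 0.05 none of the 9 passed in any of these 6 comparisons, and over all genes there were 0 such genes in 5 of them and 1 (0.00703%) in Res against Con of D1-IPs.

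Vgf was at 599.7, 508, 462, 522 and 510.1 CPM in D2 Con, at 432, 459.6, 460.6, 503.5 and 502.7 CPM in D2 Res, and at 495.6, 448.8, 449.7, 519 and 469 CPM in D2 Sus. D2 Con 1 stood above every other library, and the remaining values of the 3 groups overlapped. The log2 fold change was -0.14 ± 0.06 for Res against Con (95% interval -0.25 to -0.02, edgeR adjusted p = 1.00) and -0.12 ± 0.06 for Sus against Con (-0.24 to -0.0016, adjusted p = 1.00). Neither passed in a fit of only the libraries compared, and the calls held in 8 of 10 and 5 of 10 fits that left out a library. Without D2 Con 1 both were lost, at -0.09 and -0.07 on the log2 scale. The Res call was also lost without D2 Res 1 (-0.11), and the Sus call without D2 Con 4, D2 Sus 2, D2 Sus 3 or D2 Sus 5 (-0.12 to -0.09). In D1-IPs the log2 fold change of Vgf was 0.09 for Res against Con and 0.03 for Sus against Con. The difference between the subtypes in the Res effect was 0.23 ± 0.09 (adjusted p = 1.00), and 0% of all genes passed that test at an adjusted p under 0.05.

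For the other granins, Cartpt and Nts, the log2 fold changes between stress groups of IPs lay between -0.10 and 0.09. The intervals were narrow for the granins, such as -0.17 to 0.11 for Scg2 in D1 Sus against Con. They were wide for Cck, from -0.64 to 1.10 in D1 Sus against Con, for Adcyap1, from -0.37 to 1.12, and for Vip, from -0.27 to 1.24, so that these intervals do not exclude a rise of 1.5-fold in those 3 genes. Adcyap1 had a log2 fold change of 0.74 ± 0.44 in D2 Sus against Con (edgeR adjusted p = 1.00), with its values in D2 Sus between 1.36 and 4.10 CPM and in D2 Con between 0.851 and 3.63 CPM. In the inputs, none of the 9 genes passed an unadjusted p under 0.05 in Sus against Con, Res against Con or Sus against Res, where 4.35%, 3.15% and 5.3% of 14820 genes did.

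**Figure D5:**
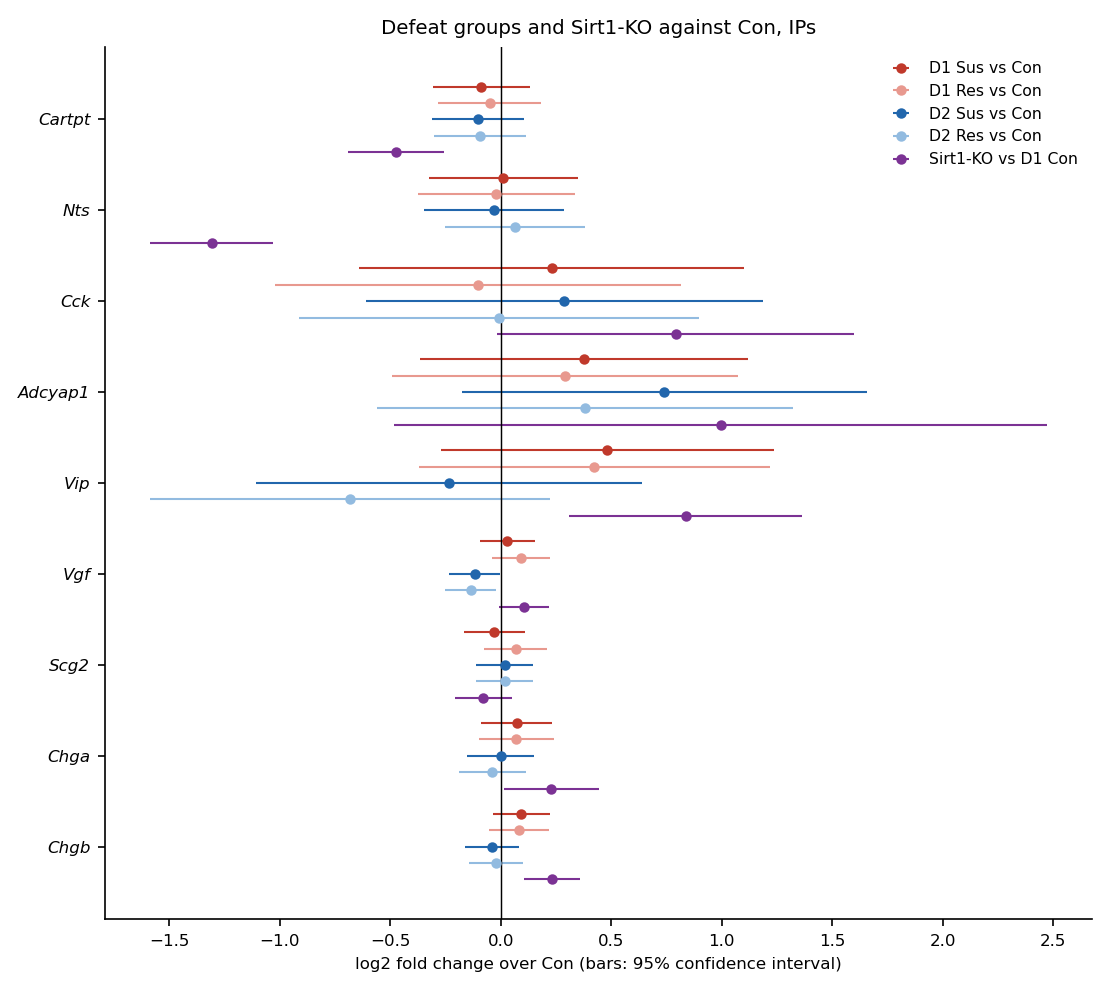
Log2 fold change over Con for each gene, for Res and Sus in D1-IPs and in D2-IPs and for the D1-IPs labelled Sirt1-KO over D1 Con, with 95% confidence intervals from edgeR. The stress series lie around 0 with wide intervals for Cck, Adcyap1 and Vip, and Nts and Cartpt lie below 0 in the Sirt1-KO series.

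Sirt1 encodes a deacetylase, and the libraries labelled Sirt1-KO were first checked for it. Sirt1 was at 15.9, 16.8, 13.7 and 10.6 CPM in these 4 libraries and at 13.99, 17.1, 15.6 and 14.9 CPM in D1 Con. The groups overlapped, and the log2 fold change was -0.10 ± 0.13 (edgeR adjusted p = 0.767). The label was thus not borne out by the level of Sirt1. The counts cover the whole gene, so that a deleted part, if any, could not be told apart from the rest, and the labels do not say whether these 4 libraries were made together with those of D1 Con, so that genotype and batch cannot be told apart.

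In the libraries labelled Sirt1-KO, Nts was lower than in D1 Con, and it was the only one of the 9 genes called, where 0.705% of 13626 genes were called (0.484% lower and 0.22% higher). It was at 25.1, 20.5, 15.1 and 20.7 CPM, against 51.9, 45.2, 56.2 and 49.8 CPM in D1 Con, and the highest of the former lay far below the lowest of the latter. The log2 fold change was -1.31 ± 0.13 (adjusted p = 0.00115), the gene ranked 6 of 13626 by p, and the call held in all 8 fits that left out a library (-1.42 to -1.19). Among the defeated D1-IPs the lowest Nts level was 33.9 CPM, also above all 4. Cartpt was at 34.8, 31.5, 25.5 and 32.2 CPM against 37.0 to 45.98 CPM in D1 Con, without overlap (log2 fold change -0.47 ± 0.10, adjusted p = 0.0354), a change of less than 1.5-fold. Marker sums of medium spiny neurons, of interneurons and of cortical excitatory neurons were read in the same comparison. The 4 markers of medium spiny neurons summed to 1681 to 2567 CPM against 2290 to 3189 CPM in D1 Con, and none of them was called (median log2 fold change -0.32). Cholinergic markers summed to 4.17 to 8.48 CPM against 10.1 to 11.6 CPM, without overlap, and 1 of the 3 tested was lower. The markers of Sst, Npy and Pvalb interneurons summed to 145 to 172 CPM against 109 to 137 CPM, also without overlap, and none of the 4 was called. The cortical markers summed to 859.9 to 1654 CPM against 393 to 1047 CPM, with overlap, and none of them was called. The part of these markers in the result was not tested.

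The other genes did not pass the test in that comparison. Vip was at 2.65, 2.60, 2.64 and 2.07 CPM, above the 1.01 to 2.03 CPM of D1 Con (log2 fold change 0.84 ± 0.24, edgeR adjusted p = 0.104, and 0.0342 in DESeq2). Chgb, at 450.3 to 514 CPM, also lay above D1 Con (0.23 ± 0.06, adjusted p = 0.0657). Cck was at 116, 143, 159 and 72.6 CPM (0.79 ± 0.34, adjusted p = 0.309) and Adcyap1 at 15.8, 36.2, 41.3 and 9.87 CPM (1.00 ± 0.61, adjusted p = 0.480), and both overlapped D1 Con. The cortical markers summed to 859.9 to 1654 CPM in these libraries against 393 to 1047 CPM in D1 Con. None of the 5 was called (median log2 fold change 0.89), and per 1000 CPM of them Cck was at 84.4 to 96.2 CPM, within the range of the other D1-IPs but for the lowest. Their part in these values was not tested. For Chga (0.23), Vgf (0.10) and Scg2 (-0.08) the adjusted p-values were 0.265, 0.334 and 0.548.

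The receptors of these peptides were read from a list of 8 genes. In Con, 1 of the 8 was higher in D1- than in D2-IPs, where 3.34% of all genes were. It was Ntsr1, a receptor of neurotensin (0.81 on the log2 scale, edgeR adjusted p = 0.0424). No other receptor was called in Res (Ntsr1 0.89, adjusted p = 0.0197) or in Sus (0.85, adjusted p = 0.0166). Of all genes, 5.41% were called in Res and 5.48% in Sus. The median log2 fold change of the list was 0.06 in Con. Against inputs, 2 receptors were lower in D1 Con and 3 in D2 Con, where 27% and 27.8% of all genes were lower. Ntsr2, a neurotensin receptor best known from astrocytes, was at -2.81 and -2.69 on the log2 scale (edgeR adjusted p = 6.67e-09 and 5.00e-09), and Vipr2, a receptor of VIP and PACAP, was at -2.88 and -2.43 (adjusted p = 0.0289 and 0.0467). Adcyap1r1, the PACAP receptor, was lower in D2 Con (-0.59, adjusted p = 3.72e-08). Between stress groups, 1 receptor passed an unadjusted p under 0.05 in D1 Sus against Con, the cholecystokinin receptor Cckbr (0.32, edgeR adjusted p = 0.860), and 1 in D2 Res against Con, Vipr2 (-2.41, adjusted p = 1.00). In D2 Sus against Res 2 passed, Vipr2 (2.69) and Adcyap1r1 (0.12), both with an edgeR adjusted p of 1.00. Of all genes, 5.24%, 2.94% and 1.62% passed in these comparisons, in that order. None of the 7 receptors tested was called in the libraries labelled Sirt1-KO.

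The enzymes and vesicle proteins that process the precursors were read from a list of 16 genes. Of all genes, 4.85% were called in D1 Con against D2 Con. Of the list only Cadps2, which primes dense-core vesicles for release, was called (log2 fold change 1.33, edgeR adjusted p = 1.74e-04). Its relative Cadps (0.46), the carboxypeptidase Cpe (0.27) and the amidating enzyme Pam (0.23) had edgeR adjusted p-values of 1.35e-04, 0.00327 and 0.00847 at folds under 1.5, and the median of the list was 0.07. Against inputs, 5 of 16 were higher and 1 lower in D1 Con, and 6 higher and 3 lower in D2 Con. Of all genes, 14.2% were higher and 27% lower in D1 Con, and 14.7% and 27.8% in D2 Con. The convertase Pcsk2 was at 1.01 and 1.25 on the log2 scale (adjusted p = 1.88e-11 and 4.09e-13), whereas Scg3, a granin that binds Chga, was at -1.07 and -1.20 (adjusted p = 1.61e-11 and 1.00e-12). Scg3 thus went the other way from the 4 granins described above. In D1 Sus against Con, 1 of 16 passed an unadjusted p under 0.05, where 5.24% of all genes did. It was the convertase Pcsk1 (0.50, edgeR adjusted p = 0.860). In D1 Sus against Res 2 of 16 passed, where 4.08% of all genes did. They were Pcsk1 (0.47) and Pcsk1n, an inhibitor of that convertase (-0.25), both with an adjusted p of 1.00. In D1 Res against Con and in the 3 D2 comparisons none of the 16 did. In the libraries labelled Sirt1-KO, 1 of 16 was called, where 0.705% of all genes were. It was Qpct, which forms the pyroglutamate end of peptides such as neurotensin (-0.89, adjusted p = 0.00515).

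Other neuropeptide precursors, a list of 16 genes of which 15 were tested in the IPs, were read beside them. In D1 Con against D2 Con, 5 were higher and 2 lower, where 3.34% and 1.51% of all genes were. Pdyn (log2 fold change 2.38) and Tac1 (0.83), known products of D1-MSNs, were higher and Penk (-1.37), the known product of D2-MSNs, was lower, as was Npy (-1.06), a marker of interneurons (edgeR adjusted p from 1.34e-11 to 0.00347). Of the 13 tested in the Sirt1-KO comparison, 2 were called, both lower: Gal (-3.88, adjusted p = 0.00209) and Tac2 (-0.91, adjusted p = 0.0414). Of all genes, 0.705% were called there, with 0.484% lower. Pdyn (-0.37) and Tac1 (-0.36) had edgeR adjusted p-values of 0.0354 and 0.0433 at folds under 1.5. Of 8 activity-induced genes, 1 was higher in D1 Con than in D2 Con, Bdnf (2.63, adjusted p = 1.22e-04), where 3.34% of all genes were. Most cortical markers were also higher in that comparison, as given above, and their part in the value of Bdnf was not tested. None of the 8 passed an unadjusted p under 0.05 between stress groups of IPs, and none was called in the libraries labelled Sirt1-KO. Against inputs, 3 of the 8 were higher and 1 lower in D1 Con, and 5 higher and 2 lower in D2 Con. Of all genes, 41.3% were called in D1 Con (14.2% higher and 27% lower) and 42.4% in D2 Con (14.7% higher and 27.8% lower).

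Genes most like each member across libraries were sought over the 28 IPs after the group means were subtracted, and are given as a description. Cck was closest to 3110035E14Rik (r = 0.96), Tbr1 (0.96) and Slc17a7 (0.95), the latter 2 of which are among the cortical markers. For Adcyap1 they were Mfsd4a (0.84), Tm6sf1 and Stac2, and for Vip Nfib (0.87), Scube1 and Sox5. Chga was closest to Olfm2 (0.88), Tubb4b and Stmn2, Chgb to Cdk11b (0.87), Jakmip2 and Sltm, and Scg2 to Dock10 (0.80), Ampd2 and Gaa. Nts was closest to Ankrd34b (0.74) and Slc25a13, and next to Vgf (0.71), and Vgf to Nts, Slc39a12 and Ccl25. Cartpt was closest to Ost4 (0.73), Tomm6 and Ccdc107. Between members, Cck and Vip rose and fell together (0.77), Nts, Vgf and Scg2 did so more loosely (0.59 to 0.71), and Cck and Scg2 ran opposite (-0.82). Chga and Chgb were hardly related (0.24). These values depend on the subtraction. Without it, r was 0.31 for Cck and Scg2, 0.78 for Chga and Chgb, 0.20 for Nts and Scg2, and 0.23 for Vgf and Scg2. For Chga, r was 0.32 with Cck and 0.37 with Adcyap1 after the subtraction, and 0.87 and 0.91 without it. All 3 nearest genes of Cck stayed the same without it, and 0 of 3 did for Cartpt, Nts, Vgf, Scg2 and Chgb.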

How the data were processed

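The deposited values are raw counts per gene symbol, and the authors used cutadapt for trimming, STAR for alignment (mm10) and HTSeq for counting. Versions are not given in the sources used here, and no counter is named for the libraries labelled Sirt1-KO. Libraries were poly-A selected with a stranded kit, and samples of low RNA integrity had been excluded. Values were tested as deposited. Entries that name no gene (5; 18.0% to 28.3% of counts in IPs, 35.9% to 40.0% in inputs) and 2 columns with no matching sample label were left out. The 5 symbols repeated in the Sirt1-KO table were taken once, and the D1 Con counts were identical in both tables. No replicates were duplicates (76 pairs).

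Normalization (TMM), CPM and the quasi-likelihood test came from edgeR 4.0.16 under R 4.3.3 (filterByExpr, minimum count 10, minimum total 15, robust fit), with Benjamini-Hochberg adjustment over all genes tested. One model held the 28 IPs, and others held the control IPs and inputs, the defeated IPs and inputs, the 18 inputs (with line or stress group as covariate), and the 8 libraries of the Sirt1-KO comparison. Calls needed a difference above 1.5-fold with an adjusted p under 0.05, an unadjusted p under 0.05 between stress groups as in the study, and an adjusted p under 0.05 for differences of differences. Errors of CPM are SDs and those of log2 fold changes SEs. Each library is 1 pool of 2 mice, and defeat batches and sequencing sets are not labelled per library. Correlations used log2 CPM with a prior count of 2.

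All 9 genes were named in every comparison, with the 3 genes most like each and up to 4 genes of smallest p from each list (processing genes, receptors, other precursors, activity-induced genes). Marker lists covered medium spiny, cortical excitatory, cholinergic, Sst, Npy and Pvalb, Htr3a-class and septal neurons, astrocytes, oligodendrocytes, microglia and endothelial cells. One gene each of the medium spiny and cortical lists is not reported here, and the sums leave it out. The genes and lists were chosen with earlier results of these data known. Alternatives were RLE size factors, other count filters, DESeq2 1.42.0, other sets of libraries in the fit, the replicate number as a block, and each library left out in turn. Programs were tested on simulated data. Figures were drawn with matplotlib 3.10.9 in Python 3.11.15.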

Additional observations from a re-analysis of the deposited data

Results flagged for a closer look

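In 63 sets of a gene and a group of 4 or 5 libraries, 5 had an extreme library by Dixon's test, where chance gives about 1 in 20. Cartpt was low in D1 Con 3 (37.0 CPM, next 44.9), and Vip was low in Sirt1-KO 5 (2.07 CPM, next 2.60). Scg2 was high in D2 Con 1 (965 CPM, next 875.0), Chga in D1 Sus 3 (354 CPM, next 309), the D1-IP with the highest cortical marker sum outside the libraries labelled Sirt1-KO (1369 CPM), and Chgb in D2 Sus 5 (415 CPM, next 372).

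The enrichment of IPs over inputs in controls differed between the D1 and D2 lines for Cck, by 2.50 on the log2 scale, and for Chga, by 0.64, in a test of the difference itself with edgeR. Each call held in only 4 of the 15 fits that left out a library. Both were lost with all genes of at least 1 count (edgeR adjusted p = 0.0566 and 0.0630). That of Cck was also lost when IPs and inputs of the same number were paired (2.25, edgeR adjusted p = 0.216). With all 46 IPs and inputs in the fit it was lost as well (edgeR adjusted p = 0.0533).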

How the results depend on the processing

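No value for a gene changed sign while called. Of the counts of genes called among the 9, D2 Res against Con fell from 1 to 0 in a fit of only the libraries compared, and D2 Sus against Con fell from 1 to 0 in that fit and with genes of a mean of at least 50 counts. The count for the libraries labelled Sirt1-KO rose from 1 to 2 in DESeq2. D1 Con against D2 Con rose from 3 to 4 (Chga gained) with RLE size factors, in DESeq2 and with all genes of at least 1 count, and D1 Con against input from 7 to 8 (Cck gained) in DESeq2. D2 Con and D2 defeated against input fell from 9 to 8 (Chga lost, 0.58 and 0.57 on the log2 scale) with genes of a mean of at least 50 counts. For the difference between lines, Adcyap1 gained a call in DESeq2 and with all 46 IPs and inputs. The difference between lines in enrichment fell from 2 to 0 with all genes of at least 1 count. With the replicate number as a block, the Sirt1-KO count was 4 (with Cck at 1.23, Adcyap1 at 1.47 and Vip at 1.16 on the log2 scale) and the count for the difference between lines was 1, where the log2 fold change of Cck in D2 Con against input, -1.15, was also no longer called (adjusted p = 0.103). The inputs came from the same homogenates as the IPs, and each input carries the name and number of an IP in the labels. The main fits did not pair them, so that their p-values for IPs against inputs treat the libraries as independent. Deviations from group means over all genes correlated over 0.1 in 4 of 18 IP and input pairs (up to 0.518, D2 Sus 1). They did so in 23 of 66 IP pairs, 13 of 45 input pairs and 0 of 3 Sirt1-KO and D1 Con pairs. Such correlations cannot decide whether libraries were paired for a given gene. The causes were not tested. Leaving out each library in turn moved the count between 0 and 2 for D2 Res and for D2 Sus against Con, 0 and 3 for the difference between lines, 2 and 4 for D1 Con against D2 Con, 7 and 8 for D1 Con and 8 and 9 for D2 Con and D2 defeated against input, 1 and 2 for Sirt1-KO (2 without D1 Con 2), and 0 and 1 for Res against Con and Sus against Res in inputs (1 without D2 Res input 3 and, in the latter, without D2 Sus input 2), and it changed no other count. Per gene, 1110 values stayed on the same side under the other alternatives, 10 lost and 11 gained a call, 9 moved and 0 reversed. Leaving out each library gave 2157 on the same side, 37 lost, 13 gained, 160 moved and 0 reversed. Depth limits Vip in D2-IPs (4 to 24 counts). P-values measure only the spread between these pooled libraries.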
